A study of Schizosaccharomyces pombe with 9 samples.

Results

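The genes described here are those of fission yeast (Schizosaccharomyces pombe) ribosome biogenesis, chosen by name: every gene whose symbol in the array annotation was nuc1 or consisted of a stem (utp, rrp, nop, noc, nog, nob, rpa, ebp, brx, ssf, mak, nip or rix) and digits. The rule found 34 genes of the 2899 named S. pombe genes on the array, each with 1 probe set. The rule itself used no measured value, although it was set with earlier results of these data known. Of the 34 genes, 30 act in ribosome synthesis by their annotated names: 6 encode subunits of RNA polymerase I, 10 act in assembly of the small (40S) subunit, 10 in assembly of the large (60S) subunit, 3 in the RNA exosome and 1 in a small nucleolar RNA protein complex. The other 4 genes fitted the pattern by name only: mak1, mak2 and mak3 encode histidine kinases, and mak10 encodes a subunit of an N-terminal acetyltransferase. They are kept in all counts over 34 genes and are described on their own.

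The series compared expression profiles of 8 gene deletions linked to the DNA damage response with wild type (WT), using 1 Affymetrix Yeast Genome 2.0 array per strain and RNA of untreated, exponentially growing cells (OD600 of 0.5 to 1.0). The deleted genes were SPAC3F10.17 (ltv1 in RefSeq, the gene of a ribosome biogenesis protein that acts on the 40S subunit in budding yeast), ash2 (a Set1 complex component), SPAC27D7.08c, SPBC2A9.02, meu29, sgf73 (a SAGA complex subunit), pab1 (a phosphatase regulatory subunit) and sec65 (a signal recognition particle subunit). The WT sample is labelled as the diploid SP286 with the genotype h+ ade6-M210 ura4-D18 leu1-32, whereas the deletions came from a purchased haploid library whose other alleles the labels do not give, so that each deletion, the strain background and the labelled ploidy cannot be told apart. The study sorted the strains by DNA content before treatment into 4 classes of 2 deletions: SPAC3F10.17Δ with ash2Δ, SPAC27D7.08cΔ with SPBC2A9.02Δ, meu29Δ with sgf73Δ, and pab1Δ with sec65Δ.

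A ribosome is made in the nucleolus. RNA polymerase I transcribes the precursor of the large rRNAs, the small subunit processome folds and cuts its 18S part while a different set of factors assembles the 60S subunit around the remainder, small nucleolar RNA protein complexes modify the rRNA, and the exosome trims its ends and degrades the spacers. In yeasts the genes of these factors are known as a growth-related regulon whose mRNA levels fall together under stress and starvation and are high in fast-growing cells.

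With 1 array per strain there was no replicate error, no difference could be tested, and all values are descriptions of single arrays. All 8 ratios share the same WT array. Since RNA came from whole cultures, a change in the share of cells in some state and a change in RNA per cell cannot be told apart. Background, the 95th percentile of probe sets made for Saccharomyces cerevisiae on the same arrays, lay at a signal of 36.2 to 40.2, and between 2855 and 2872 of the 2899 genes exceeded it on an array. All 34 ribosome biogenesis genes exceeded it on all 9 arrays, with a lowest signal of 430.2 (rrp6 in SPAC27D7.08cΔ), so that no floor entered their values. The closest arrays, those labelled pab1Δ and sec65Δ, had log2 signals whose differences spread with an SD of 0.14 over genes, which serves as a rough yardstick for differences of single genes. It is the smallest such spread of any pair of arrays, comes from different labelled strains, and does not measure replicate error. As a check of the labels, the deleted transcript was at background in ash2Δ (0.0435 of WT) and low in sgf73Δ (0.0296) and meu29Δ (0.0791). The pab1 and sec65 transcripts were still at 0.609 and 0.679 of WT on the arrays labelled with their deletion, so both are named as labelled here. SPAC3F10.17, SPAC27D7.08c and SPBC2A9.02 have no named probe set and were not analysed here.

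The ribosome biogenesis genes lay highest in meu29Δ, next highest in sgf73Δ and lowest in SPAC27D7.08cΔ. Their median log2 ratio to WT was 0.54 in meu29Δ, or 1.45 times WT, where the median of all named genes was 0.06. In sgf73Δ the median was 0.26 against 0.06 for all genes, and in SPAC3F10.17Δ it was 0.13 against 0.07. Both lay between the quartiles of all genes, whose upper quartile was 0.29 in sgf73Δ and 0.27 in SPAC3F10.17Δ. It was -0.27 in SPAC27D7.08cΔ, or 0.827 of WT, beside -0.0011 for all genes. The remaining medians were -0.16 in SPBC2A9.02Δ, -0.09 in ash2Δ, -0.05 on the array labelled pab1Δ and -0.04 on that labelled sec65Δ, with medians of all genes of -0.03, -0.01, 0.02 and 0.03. The SPAC3F10.17Δ median depended on scaling, and was 0.05 after each array was shifted to the same median and 0.06 after quantile normalization. The median of all genes in SPAC3F10.17Δ moved down too, to -0.0028 and 0.03. The sizes were modest throughout, and 247 of the 272 ratios of the 34 genes were within 1.5-fold of WT while 3 reached 2-fold.

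**Figure D1:**
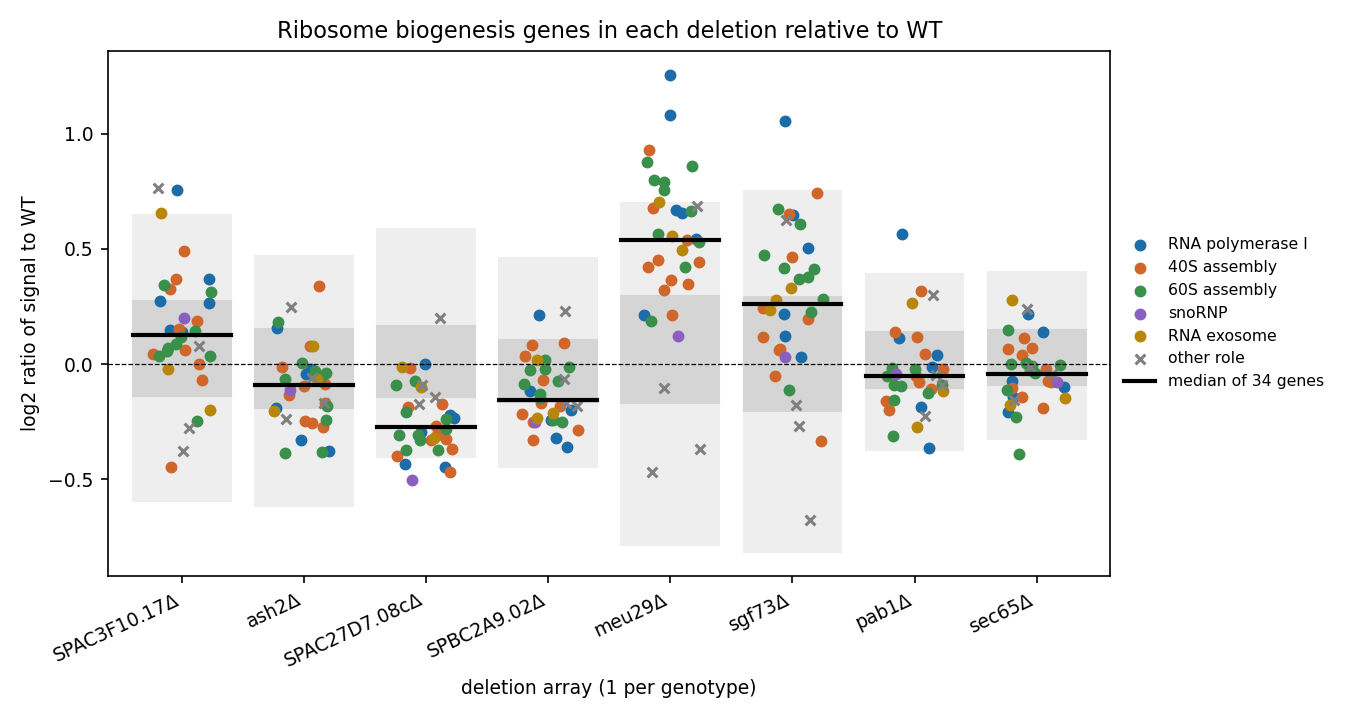
Each point is the log2 ratio of a gene's signal to WT (vertical axis) on the array of 1 deletion (horizontal axis), coloured by role, with crosses for the 4 genes of another role, a black bar at the median of the 34 genes, and grey bands from the 5th to the 95th percentile (light) and between the quartiles (dark) of all named genes. The black bar lies at 0.54 in meu29Δ, above the dark band, and at -0.27 in SPAC27D7.08cΔ, under it. On the other arrays it lies inside the dark band.

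On every deletion array more than 20 of the 34 genes stood on the same side of WT, above it in meu29Δ, sgf73Δ and SPAC3F10.17Δ and lower than it on the other 5 arrays. In meu29Δ, 31 of 34 were above WT, where 59.8% of all measured genes were, and the 3 that were not were mak1, mak2 and mak3. In sgf73Δ, 28 were above WT beside 56.8% of all genes, and in SPAC3F10.17Δ 27 were, beside 60.4%. In SPAC27D7.08cΔ, only mak10 and, by 0.0011 log2 units, rpa34 were above WT, 2 of 34 beside 49.8% of all genes. Above WT were also 7 of 34 in ash2Δ (48.1% of all genes), 7 in SPBC2A9.02Δ (43.8%), 9 on the array labelled pab1Δ (55.6%) and 10 on that labelled sec65Δ (55.6%).

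Of the 34 genes, those at least 1.5-fold higher than WT were most numerous in meu29Δ and sgf73Δ. At least 1.5-fold higher than WT were 14 of 34 genes in meu29Δ, where 8.53% of all genes were, and 7 in sgf73Δ, where 8.96% were. SPAC3F10.17Δ had 3 such genes (rpa49, rrp46 and mak10) beside 6.41% of all genes. There were 0 in ash2Δ (3% of all genes), SPAC27D7.08cΔ (5.02%), SPBC2A9.02Δ (3.38%) and the arrays labelled pab1Δ (2.13%) and sec65Δ (2.16%). In the other direction, mak2 in sgf73Δ was the 1 gene at least 1.5-fold lower than WT, where 9.45% of all genes were. For the remaining 7 arrays the count was 0, beside 5.19% of all genes in SPAC3F10.17Δ, 5.54% in ash2Δ, 1.71% in SPAC27D7.08cΔ, 2.83% in SPBC2A9.02Δ, 7.66% in meu29Δ, 2.26% on the array labelled pab1Δ and 1.74% on that labelled sec65Δ. At the 2-fold threshold of the study, meu29Δ had 2 genes higher (rpa34 and rpa49, 1.6% of all genes) and 0 lower (2.89%), and sgf73Δ had 1 higher (rpa34, 2.71%) and 0 lower (3.27%). The 1 gene higher in sgf73Δ was 2.94% of the 34 genes, close to the share of all genes. No ribosome biogenesis gene was 2-fold from WT in either direction in SPAC3F10.17Δ (3.34% of all genes), ash2Δ (2.23%), SPAC27D7.08cΔ (2.33%), SPBC2A9.02Δ (2.27%) or on the arrays labelled pab1Δ (1.36%) and sec65Δ (1.36%).

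RNA polymerase I had the genes with the greatest ratios. All 6 of its subunit genes were above WT in meu29Δ, in sgf73Δ and in SPAC3F10.17Δ, with medians of 0.66, 0.36 and 0.27 log2 units, and 4 of 6 reached 1.5-fold in meu29Δ. In SPAC27D7.08cΔ the median was -0.26 and in SPBC2A9.02Δ it was -0.22, with rpa34 as the 1 gene of the 6 that was not lower than WT in each. In ash2Δ the median was -0.12, and on the arrays labelled pab1Δ and sec65Δ it was 0.01 and -0.09.

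Both genes at 2-fold encode subunits that form a heterodimer on the polymerase. The rpa34 (SPBC11G11.05) signal was 1011 in WT, 1305 in SPAC3F10.17Δ, 981 in ash2Δ, 1011 in SPAC27D7.08cΔ, 1171 in SPBC2A9.02Δ, 2416 in meu29Δ, 2101 in sgf73Δ, 1494 on the array labelled pab1Δ and 1175 on that labelled sec65Δ. Its level in meu29Δ and sgf73Δ was 2.39 and 2.08 times WT, and the array labelled pab1Δ came next with 1.48 times. The rpa49 (SPAC2F3.03c) signal was 1567 in WT, 2648 in SPAC3F10.17Δ, 1748 in ash2Δ, 1277 in SPAC27D7.08cΔ, 1445 in SPBC2A9.02Δ, 3314 in meu29Δ, 2452 in sgf73Δ, 1696 on the array labelled pab1Δ and 1724 on that labelled sec65Δ. Here SPAC3F10.17Δ, at 1.69 times WT, lay above sgf73Δ, at 1.57 times, and both lay under meu29Δ, at 2.12 times. Between its highest and lowest arrays, meu29Δ and SPAC27D7.08cΔ, rpa49 differed 2.60-fold, the widest span of the 34 genes, whose spans ran from 1.30-fold (mak1) with a median of 1.74-fold.

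For nuc1 (SPBC4C3.05c), which encodes the largest subunit, the signal was 2003 in WT, 2208 in SPAC3F10.17Δ, 1972 in ash2Δ, 1469 in SPAC27D7.08cΔ, 1744 in SPBC2A9.02Δ, 3183 in meu29Δ, 2845 in sgf73Δ, 2061 on the array labelled pab1Δ and 1869 on that labelled sec65Δ. Its log2 ratios of 0.67 in meu29Δ and 0.51 in sgf73Δ stood opposite -0.45 in SPAC27D7.08cΔ. For rpa2 (SPBP23A10.07), of the second largest subunit, the signal was 1521 in WT, 1841 in SPAC3F10.17Δ, 1335 in ash2Δ, 1125 in SPAC27D7.08cΔ, 1185 in SPBC2A9.02Δ, 2396 in meu29Δ, 1552 in sgf73Δ, 1335 on the array labelled pab1Δ and 1377 on that labelled sec65Δ. Unlike nuc1, rpa2 stood near WT in sgf73Δ, with a log2 ratio of 0.03, and at -0.36 it was the lowest of the 34 genes in SPBC2A9.02Δ.

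For rpa12 (SPCC1259.03), of a small subunit of the polymerase, the signal was 2088 in WT, 2507 in SPAC3F10.17Δ, 1608 in ash2Δ, 1775 in SPAC27D7.08cΔ, 1669.5 in SPBC2A9.02Δ, 3041 in meu29Δ, 2429 in sgf73Δ, 1623 on the array labelled pab1Δ and 1809 on that labelled sec65Δ. Its lowest array was ash2Δ, at a log2 ratio of -0.38, and at -0.36 it was the lowest of the 34 genes on the array labelled pab1Δ. The stalk subunit gene rpa43 stayed closest to WT of the 6 in meu29Δ, at 0.22.

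**Figure D2:**
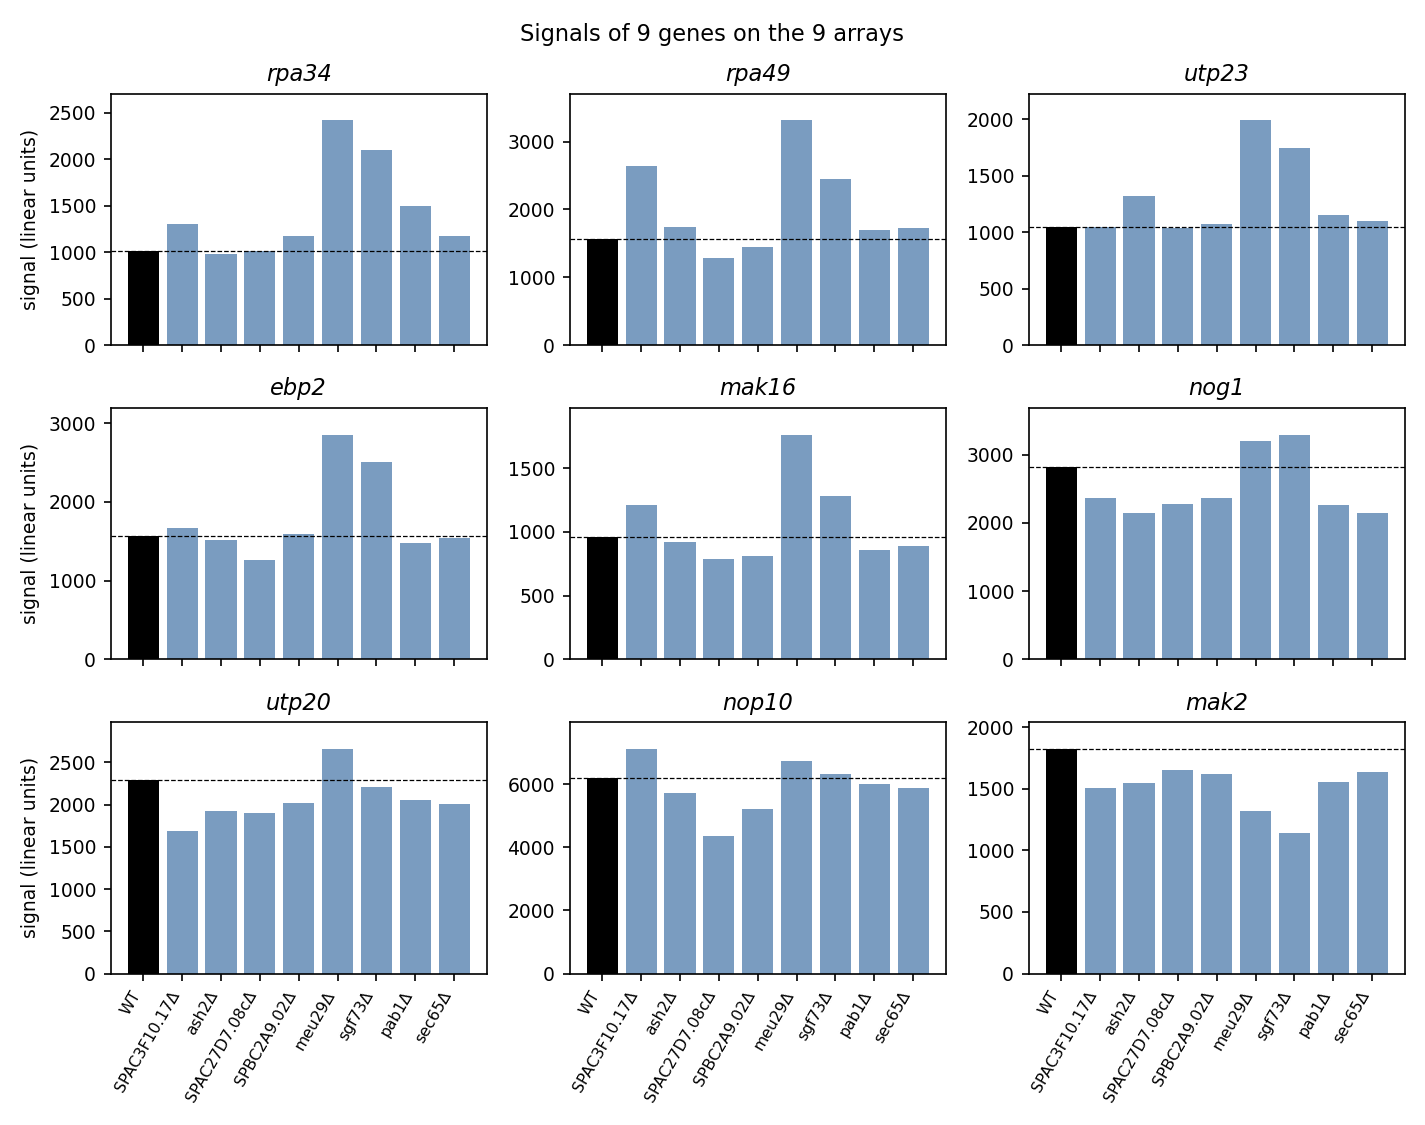
Bars show the signal (vertical axis, linear units from 0) of 9 genes on the 9 arrays (horizontal axis), with WT in black and its level as a dashed line; panels have their own scales. The meu29Δ and sgf73Δ bars of rpa34 (2416 and 2101) and utp23 (1991 and 1749) stand above all others in their panels, while for mak2 these bars are the lowest (1318 and 1139).

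Genes of 40S assembly code for the small subunit processome, built from the Utp proteins, and for factors such as Nop9, Nop14 and Rrp12. All 10 were above WT in meu29Δ, with a median of 0.43, and all 10 were lower than WT in SPAC27D7.08cΔ, with a median of -0.32. The sgf73Δ median was 0.16, with 8 of 10 above WT, and that of SPAC3F10.17Δ, the deletion of ltv1, was 0.11, also with 8 of 10 above. In SPBC2A9.02Δ the median was -0.18 with 3 of 10 above WT, and in ash2Δ it was -0.12 with 2 of 10. On the arrays labelled pab1Δ and sec65Δ the medians were -0.04 and -0.05.

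By mean log2 ratio over the deletions, utp23 was the highest of the group and utp20 the lowest, both genes of processome components. The utp23 (SPCC18.12c) signal was 1046 in WT, 1048 in SPAC3F10.17Δ, 1323 in ash2Δ, 1034 in SPAC27D7.08cΔ, 1072 in SPBC2A9.02Δ, 1991 in meu29Δ, 1749 in sgf73Δ, 1153 on the array labelled pab1Δ and 1096 on that labelled sec65Δ. It was 1.90 times WT in meu29Δ and 1.67 times in sgf73Δ, and at 1.26 times it was the highest of the 34 genes in ash2Δ, where most of them were lower than WT. The utp20 (SPBC56F2.04) signal was 2291 in WT, 1681 in SPAC3F10.17Δ, 1928 in ash2Δ, 1901 in SPAC27D7.08cΔ, 2022 in SPBC2A9.02Δ, 2657 in meu29Δ, 2209.8 in sgf73Δ, 2053 on the array labelled pab1Δ and 2006 on that labelled sec65Δ. For utp20, meu29Δ was the single deletion above WT, and SPAC3F10.17Δ, at a log2 ratio of -0.45, was the lowest array.

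After utp23, the highest gene of the group in sgf73Δ was utp15, and the lowest was rrp12. The utp15 (SPBC428.19c) signal was 1219.9 in WT, 1713 in SPAC3F10.17Δ, 1141 in ash2Δ, 883 in SPAC27D7.08cΔ, 1299 in SPBC2A9.02Δ, 1771 in meu29Δ, 1917 in sgf73Δ, 1519 on the array labelled pab1Δ and 1201 on that labelled sec65Δ. It encodes a processome protein that in budding yeast is also tied to rRNA gene transcription, and sgf73Δ was its highest array, at 1.57 times WT. The rrp12 (SPBC1105.01) signal was 1095 in WT, 1143 in SPAC3F10.17Δ, 1156 in ash2Δ, 884 in SPAC27D7.08cΔ, 871 in SPBC2A9.02Δ, 1409 in meu29Δ, 870.1 in sgf73Δ, 1187 on the array labelled pab1Δ and 1185 on that labelled sec65Δ. Rrp12 acts in export of ribosomal subunits in budding yeast, and its gene was lowest in sgf73Δ, at 0.795 of WT. The other 6 genes of the group (utp4, utp5, utp10, utp13, nop9 and nop14) had log2 ratios from 0.32 to 0.68 in meu29Δ and from 0.06 to 0.46 in sgf73Δ.

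The small nucleolar RNA protein gene nop10 (SPAP27G11.13c), of the box H/ACA complex that guides pseudouridylation, was highest in SPAC3F10.17Δ. Its signal was 6197 in WT, 7120.2 in SPAC3F10.17Δ, 5739 in ash2Δ, 4372 in SPAC27D7.08cΔ, 5207 in SPBC2A9.02Δ, 6735 in meu29Δ, 6335 in sgf73Δ, 6023 on the array labelled pab1Δ and 5869 on that labelled sec65Δ. At a log2 ratio of -0.50 it was the lowest of the 34 genes in SPAC27D7.08cΔ, and in meu29Δ it was, at 0.12, the lowest of the 30 ribosome synthesis genes. In the list of 8 further small nucleolar RNA protein genes, the complex partners nhp2 and cbf5 had log2 ratios of 0.21 and 0.57 in SPAC3F10.17Δ, 0.12 and 0.29 in meu29Δ, and -0.25 and -0.32 in SPAC27D7.08cΔ, and the median of the 8 was 0.23, 0.18 and -0.24 in these strains. Both genes were picked after their values were seen.

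Genes of 60S assembly had the highest group median in meu29Δ, 0.71, with all 10 above WT and 6 of them (mak16, ebp2, nop16, nop12, rrp16 and nop52) at least 1.5-fold. The median in sgf73Δ was 0.40, with 9 of 10 above WT. In SPAC27D7.08cΔ all 10 were lower than WT, with a median of -0.29. The medians elsewhere were small, 0.08 in SPAC3F10.17Δ, -0.06 in ash2Δ, -0.08 in SPBC2A9.02Δ, and -0.09 and -0.02 on the arrays labelled pab1Δ and sec65Δ, although all 10 genes were lower than WT on the array labelled pab1Δ.

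The widest spans in the group were those of nop16, ebp2 and mak16, whose products are nucleolar components of early 60S precursors. The mak16 (SPAC222.06) signal was 958 in WT, 1214 in SPAC3F10.17Δ, 917 in ash2Δ, 789 in SPAC27D7.08cΔ, 809.6 in SPBC2A9.02Δ, 1762 in meu29Δ, 1277 in sgf73Δ, 859.8 on the array labelled pab1Δ and 886 on that labelled sec65Δ. In meu29Δ it was 1.84 times WT, 0.46 log2 units above the next highest array. The ebp2 (SPAC17H9.05) signal was 1572 in WT, 1670.3 in SPAC3F10.17Δ, 1512 in ash2Δ, 1268 in SPAC27D7.08cΔ, 1594 in SPBC2A9.02Δ, 2855 in meu29Δ, 2507 in sgf73Δ, 1477 on the array labelled pab1Δ and 1543 on that labelled sec65Δ. Apart from meu29Δ (1.82 times WT) and sgf73Δ (1.59 times), all its arrays lay between 0.807 and 1.06 times WT. The nop16 (SPBC1539.10) signal was 1115 in WT, 1208 in SPAC3F10.17Δ, 941 in ash2Δ, 859.9 in SPAC27D7.08cΔ, 1098 in SPBC2A9.02Δ, 1943 in meu29Δ, 1490.1 in sgf73Δ, 1042 on the array labelled pab1Δ and 1086 on that labelled sec65Δ. Between meu29Δ and SPAC27D7.08cΔ, nop16 differed 2.26-fold.

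The GTPase gene nog1 (SPBC651.01c) was lower than WT on 6 of the 8 deletion arrays. Its signal was 2816 in WT, 2369.6 in SPAC3F10.17Δ, 2153 in ash2Δ, 2274 in SPAC27D7.08cΔ, 2367 in SPBC2A9.02Δ, 3203 in meu29Δ, 3295 in sgf73Δ, 2269.9 on the array labelled pab1Δ and 2150.1 on that labelled sec65Δ. It was the lowest of the 34 genes in ash2Δ (log2 ratio -0.39) and on the array labelled sec65Δ (-0.39), and also the lowest of the 60S group in meu29Δ (0.19), where it still stood above WT. The gene rrp8, of an rRNA base methyltransferase in budding yeast, was the 1 gene of the group lower than WT in sgf73Δ, at -0.11, while it stood at 0.53 in meu29Δ. The remaining genes brx1, noc3, nop12, nop52 and rrp16 (synonym nop53) had log2 ratios from 0.42 to 0.79 in meu29Δ and from -0.37 to -0.07 in SPAC27D7.08cΔ.

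The 3 exosome genes had medians of 0.56 in meu29Δ and 0.28 in sgf73Δ, each with 3 of 3 above WT, and of -0.10 in SPAC27D7.08cΔ, where 0 of 3 were. The gene of the nuclear exonuclease Rrp6 was at 1.63 times WT in meu29Δ and 0.802 in SPAC27D7.08cΔ. The gene of the core ring subunit Rrp46 (SPBC115.01c) was set apart by SPAC3F10.17Δ. Its signal was 1221 in WT, 1923 in SPAC3F10.17Δ, 1289 in ash2Δ, 1212 in SPAC27D7.08cΔ, 1235 in SPBC2A9.02Δ, 1798 in meu29Δ, 1437 in sgf73Δ, 1468 on the array labelled pab1Δ and 1479 on that labelled sec65Δ. It was 1.57 times WT in SPAC3F10.17Δ, and at 1.21 times it was the highest of the 34 genes on the array labelled sec65Δ. The third gene, rrp41, also of the core ring, was lower than WT on 6 of 8 deletion arrays.

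The 4 genes that fitted the pattern by name only differed among themselves. Histidine kinases of the Mak family relay signals such as oxidative stress to a MAP kinase pathway. The mak2 (SPAC27E2.09) signal was 1824 in WT, 1503 in SPAC3F10.17Δ, 1548 in ash2Δ, 1649.7 in SPAC27D7.08cΔ, 1624 in SPBC2A9.02Δ, 1318 in meu29Δ, 1139 in sgf73Δ, 1559.6 on the array labelled pab1Δ and 1639 on that labelled sec65Δ. It was lower than WT on all 8 deletion arrays and lowest in sgf73Δ, at 0.625 of WT, and in meu29Δ, at 0.723. The mak3 (SPCC74.06) signal was 1657 in WT, 1749.7 in SPAC3F10.17Δ, 1589.7 in ash2Δ, 1556 in SPAC27D7.08cΔ, 1583 in SPBC2A9.02Δ, 1284 in meu29Δ, 1376 in sgf73Δ, 1602 on the array labelled pab1Δ and 1641 on that labelled sec65Δ. As for mak2, its lowest arrays were meu29Δ and sgf73Δ. The mak1 (SPAC1834.08) signal was 2419 in WT and lower on all 8 deletion arrays, from 1863 in SPAC3F10.17Δ to 2346 on the array labelled sec65Δ.

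The acetyltransferase gene mak10 (SPBC1861.03, naa35 in RefSeq) was above WT on all 8 deletion arrays. Its signal was 667 in WT, 1133 in SPAC3F10.17Δ, 793 in ash2Δ, 767 in SPAC27D7.08cΔ, 783 in SPBC2A9.02Δ, 1076 in meu29Δ, 1029 in sgf73Δ, 822 on the array labelled pab1Δ and 788 on that labelled sec65Δ. The WT array was its lowest, and the next lowest, SPAC27D7.08cΔ, stood at 1.15 times WT. Without the 4 genes, the medians of the 30 ribosome synthesis genes were 0.55 in meu29Δ, 0.28 in sgf73Δ, 0.14 in SPAC3F10.17Δ, -0.09 in ash2Δ, -0.16 in SPBC2A9.02Δ and -0.30 in SPAC27D7.08cΔ. All 30 stood above WT in meu29Δ and 29 of 30 stood lower than WT in SPAC27D7.08cΔ.

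**Figure D3:**
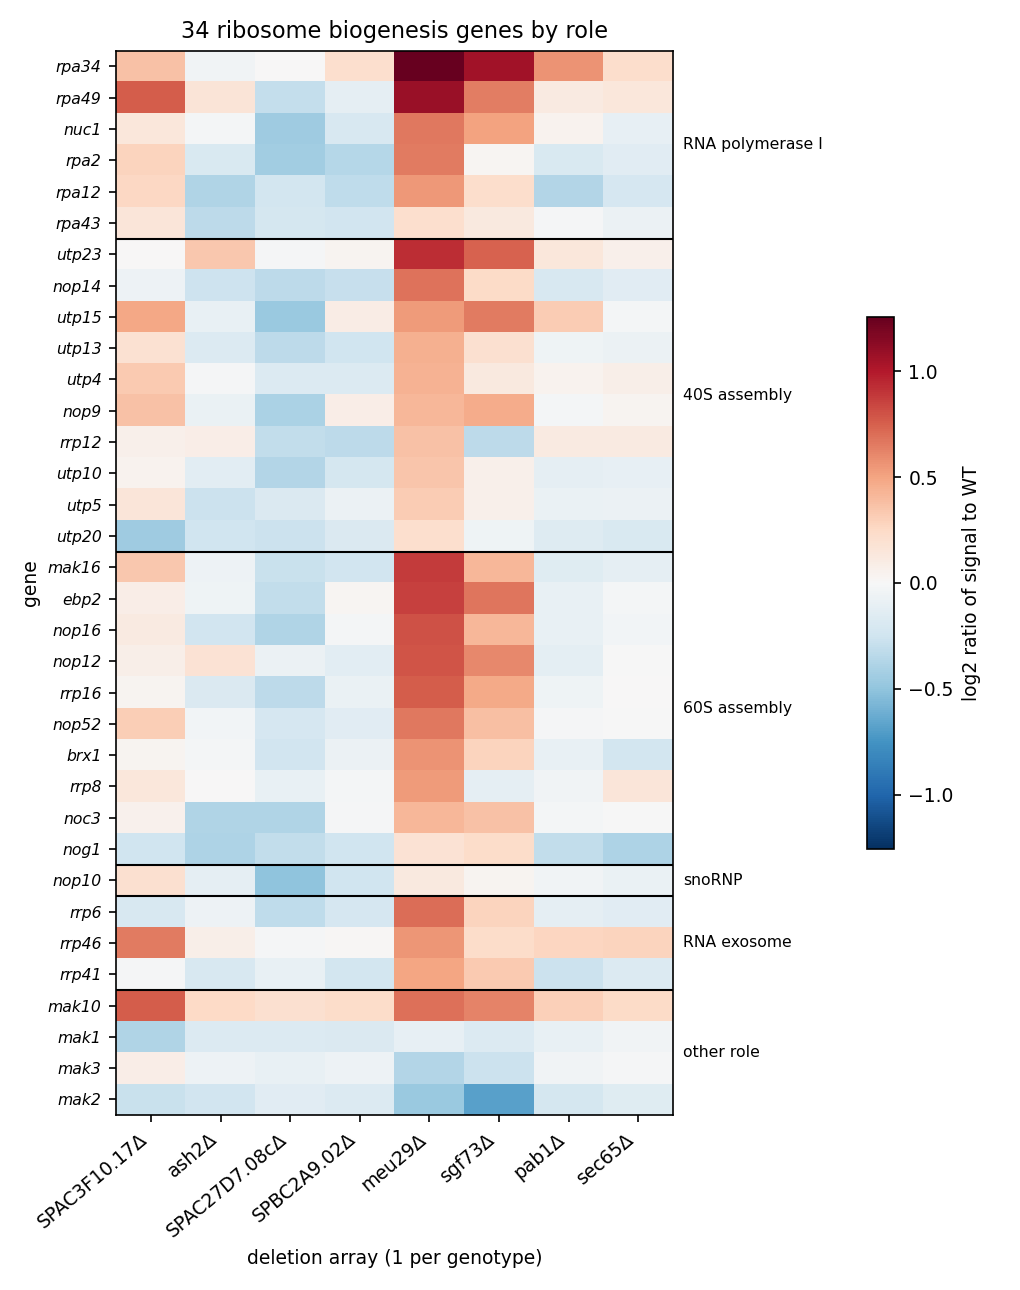
Colours give the log2 ratio of signal to WT of the 34 genes (rows, grouped by role) on the 8 deletion arrays (columns), red for higher and blue for lower than WT. The meu29Δ column is red for all 30 ribosome synthesis genes, from 0.12 (nop10) to 1.26 (rpa34), the SPAC27D7.08cΔ column is mostly blue, and mak10 is red throughout.

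Deletion arrays were also set directly against each other, without the WT array. The first pair, meu29Δ and SPAC27D7.08cΔ, held the highest and the lowest median of these same 34 genes. A wide difference between them follows from that choice of pair and adds no separate evidence. In meu29Δ, the 34 genes lay above SPAC27D7.08cΔ by a median of 0.79 log2 units where all genes lay 0.07 above, and 32 of 34 were higher, beside 56.7% of all genes. The difference reached 1.5-fold for 25 genes, beside 11% of all genes, and 2-fold for 11 genes, beside 2.19%, with rpa49 at the top (1.38) and mak2 at the bottom (-0.32). Inside the class that meu29Δ shares with sgf73Δ, 30 of 34 genes were higher in meu29Δ, beside 52.7% of all genes, with a median difference of 0.26. The largest of those differences was that of rrp12, 0.70, and the lowest was that of utp15, -0.11.

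In SPAC27D7.08cΔ, 7 of 34 genes were higher than in SPBC2A9.02Δ, beside 54.6% of all genes, with a median of -0.07, and utp15 was the lowest at -0.56. In SPAC3F10.17Δ, 27 of 34 were higher than in ash2Δ, beside 60.1% of all genes, with a median of 0.27 and a range from -0.34 (utp23) to 0.64 (rpa12). On the array labelled pab1Δ, 13 of 34 were higher than on that labelled sec65Δ, beside 48.6% of all genes, with a median of -0.02, and the greatest difference was that of rpa34, 0.35.

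Over all 9 arrays, meu29Δ was the highest for 25 of the 34 genes, where it was the highest for 17.8% of all genes, and all 25 act in ribosome synthesis. The next highest array lay lower by a median of 0.25 log2 units (0.05 to 0.46), and for 22 of the 25 by more than the SD of 0.14 between the closest arrays. For the other 9 genes the highest array was SPAC3F10.17Δ (nop10, rrp46, mak10 and mak3), sgf73Δ (nog1, nop9 and utp15) or WT (mak1 and mak2). The 2 highest arrays were meu29Δ and sgf73Δ for 19 of 34 genes, beside 16.5% of all genes.

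At the other end, SPAC27D7.08cΔ was the lowest array for 19 of 34 genes, again all from ribosome synthesis, where it was the lowest for 21.9% of all genes. The gap to the next lowest array was small, with a median of 0.11 log2 units, and exceeded 0.14 for 8 of the 19. The widest gap, 0.37, was that of utp15. The 2 lowest arrays were SPAC27D7.08cΔ and SPBC2A9.02Δ for 11 of 34 genes, beside 9.54% of all genes. For 5 genes (noc3, rpa12, rpa34, rpa43 and utp5), ash2Δ was the lowest array. Centred on each gene's median over the 9 arrays, the medians of the 34 genes were 0.52 in meu29Δ, 0.38 in sgf73Δ, 0.14 in SPAC3F10.17Δ, 0.02 in WT and -0.21 in SPAC27D7.08cΔ.

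The genes varied together across strains. Over the 9 arrays, Pearson's r of log2 signals had a median of 0.756 over the 561 pairs of the 34 genes and of 0.0297 over all 4200651 pairs of named genes, and it was above 0.5 in 74.5% and 17.6% of these pairs. Among the 30 ribosome synthesis genes the median was 0.804, and 0 of 435 pairs had a value below 0. These correlations describe 9 arrays of 9 strains that share a platform and a normalization, and genes are not independent. With the meu29Δ array left out, the median over the 561 pairs was 0.616, and with any other single array left out it was between 0.737 and 0.819.

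Against the mean of the other ribosome synthesis genes, nop52 (r = 0.986), mak16 (0.976), nop16 (0.974) and utp13 (0.974) followed the common pattern most closely, and 24 of 30 had an r of at least 0.8. The lowest values of the 30 were those of rrp12 (0.448) and utp20 (0.613). The genes mak2 and mak3 ran against the pattern, with r of -0.733 and -0.696, mak1 had an r of -0.0594, and mak10 followed it with 0.762.

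**Figure D4:**
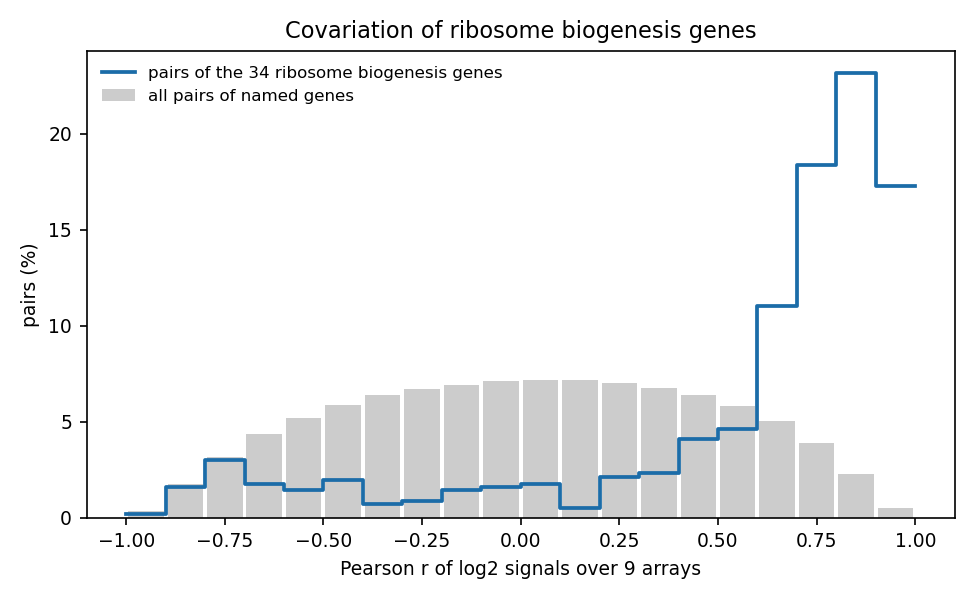
The horizontal axis is Pearson's r of log2 signals over the 9 arrays in steps of 0.1 and the vertical axis the percent of gene pairs, as a blue line for the 561 pairs of the 34 genes and as grey bars for all pairs of the 2899 named genes. The blue line is highest on the right, with 23.2% of pairs between 0.8 and 0.9, where the grey bars hold 2.3%.

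A second list held 51 further ribosome biogenesis genes that the symbol pattern does not catch. These are the part of a longer list of symbols that matched a named gene. Other symbols of it, such as imp4, mpp10 and pwp2, matched none and are missing. Their medians were 0.44 in meu29Δ, 0.21 in sgf73Δ, 0.23 in SPAC3F10.17Δ, -0.24 in SPAC27D7.08cΔ, -0.09 in ash2Δ, -0.06 in SPBC2A9.02Δ, 0.03 on the array labelled pab1Δ and 0.04 on that labelled sec65Δ. In meu29Δ, 50 of 51 were above WT, beside 59.8% of all genes. At least 1.5-fold higher were 15, beside 8.53% of all genes, and 0 were at least 1.5-fold lower, beside 7.66%. In SPAC27D7.08cΔ, 5 of 51 were above WT (49.8% of all genes), and 3 were at least 1.5-fold lower (1.71%). The lowest of the 51 there was the helicase gene dbp3, at 0.648 of WT.

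The 4 genes of the second list at 2-fold were all high in meu29Δ, where 1.6% of all genes were at least 2-fold higher. These 4 were the RNA helicase genes rok1 (log2 ratio 1.16), dbp8 (1.05) and dbp10 (1.04), and lsg1 (1.15), of a GTPase that acts on the 60S subunit in the cytoplasm. In sgf73Δ, lsg1 alone of the 51 reached 2-fold, at 1.53, beside 2.71% of all genes at least 2-fold higher. The 1 gene lower than WT in meu29Δ was pac1, of the RNase III that processes rRNA and small nuclear RNA precursors, at -0.12, and it was also the lowest of the 51 in sgf73Δ, at -0.70.

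The 16 RNA polymerase I factors and shared subunits stood at 0.39 in meu29Δ, 0.25 in sgf73Δ, 0.23 in SPAC3F10.17Δ and -0.16 in SPAC27D7.08cΔ. The 18 genes of RNA polymerase III and its factors, which make 5S rRNA and tRNAs, stood at 0.30, 0.18, 0.20 and -0.10 in the same strains, and maf1, the gene of the repressor of this polymerase, was their lowest in meu29Δ, at -0.64. The 111 cytosolic ribosomal protein genes differed little from WT. Their medians were 0.04 in meu29Δ, 0.08 in sgf73Δ, 0.08 in SPAC3F10.17Δ and -0.08 in SPAC27D7.08cΔ, where those of all named genes were 0.06, 0.06, 0.07 and -0.0011. Above WT were 96, 95, 98 and 7 of 111, beside 59.8%, 56.8%, 60.4% and 49.8% of all genes. At 2-fold among the ribosomal protein genes were rps1401 (higher in meu29Δ, sgf73Δ and SPBC2A9.02Δ, log2 ratios 1.57, 1.51 and 1.13), rps2202 (-1.21 in SPAC3F10.17Δ) and rpl1603 (-1.06 in SPAC27D7.08cΔ). The rise of rps1401 was not confined to those strains. It was also the highest of the list in ash2Δ (0.96), on the arrays labelled pab1Δ (0.72) and sec65Δ (0.51), and in SPAC27D7.08cΔ (0.06). Many ribosomal protein genes have near-identical copies that 1 probe set may not separate.

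**Figure D5:**
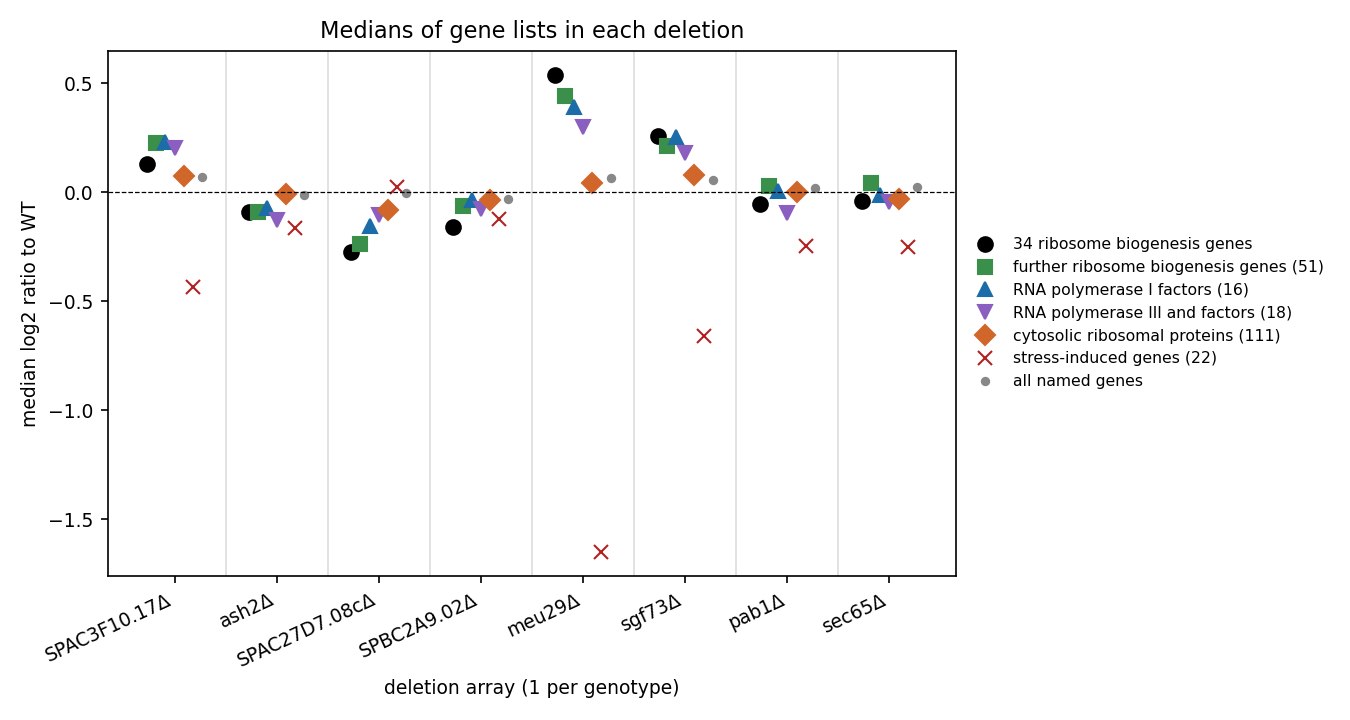
Symbols give the median log2 ratio of signal to WT (vertical axis) of 6 gene lists and of all named genes on each deletion array (horizontal axis). In meu29Δ the 34 genes (0.54) and the 51 further ribosome biogenesis genes (0.44) lie above the ribosomal proteins (0.04), and the stress-induced genes lie at -1.65.

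Lists that mark the state of the cells were measured on the same arrays. The 22 stress-induced genes of the core environmental stress response had a median of -1.65 in meu29Δ. There, 15 were at least 2-fold lower than WT, beside 2.89% of all genes. In sgf73Δ the median was -0.66, and 7 were at least 2-fold lower, beside 3.27% of all genes. Single genes went the other way, with 5 of 22 above WT in sgf73Δ (56.8% of all genes). The highest was isp3, with log2 ratios of 4.95 in sgf73Δ, 3.55 in SPBC2A9.02Δ and 2.43 in SPAC27D7.08cΔ, but -0.77 in meu29Δ. The median of the list was -0.44 in SPAC3F10.17Δ and 0.02 in SPAC27D7.08cΔ. It was also lower than WT on the 4 remaining arrays, where the ribosome biogenesis genes had medians lower than WT too, at -0.17 in ash2Δ, -0.12 in SPBC2A9.02Δ, and -0.24 and -0.25 on the arrays labelled pab1Δ and sec65Δ. The summed signal of the stress-induced genes ran from 64606 in meu29Δ to 138666 in WT, with SPAC27D7.08cΔ next at 135398. On no array was any of the 22 at background. The 14 nitrogen starvation and stationary phase genes had a summed signal from 30156 in meu29Δ to 84740.1 in SPBC2A9.02Δ, with 50935 in WT and 72280 in SPAC27D7.08cΔ, and 0 at background. Their median log2 ratio was lowest in sgf73Δ, at -0.90, with -0.23 in meu29Δ, 0.26 in SPAC27D7.08cΔ and 0.54 in SPBC2A9.02Δ. In sgf73Δ, 5 of these 14 were above WT (56.8% of all genes), the highest of them ght3 at 5.08, and the lowest of the 14 was inv1 at -5.37. At least 2-fold higher there were 3 of the 14 (2.71% of all genes), and 6 were at least 2-fold lower (3.27%). The 17 meiosis markers summed to 4086 in WT and to at most 6054, in sgf73Δ, with 2 to 5 of them at background on an array and spo4 and rec7 at background on all 9. Over the deletion arrays, the median log2 ratio of those measured ran from 0.09, on the array labelled pab1Δ, to 0.58 in sgf73Δ. In sgf73Δ all 15 measured were above WT (56.8% of all genes), and 4 were at least 2-fold higher (2.71%). Whether these states had a part in the levels of the ribosome biogenesis genes was not tested.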

How the data were processed

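The authors hybridised biotinylated cRNA, made from total RNA (RNeasy Mini and 3' IVT Express kits), to 9 Affymetrix arrays, and the data were analysed by a company. The deposited values were log2 signals, 1 per probe set. The submitters' processing notes name MAS5 without its role, and details of normalization were not given in the sources used here, so they entered as deposited.

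The arrays held 10928 probe sets. Besides 213 controls, 5518 carried a single gene symbol, 20 carried several and 5177 carried none. Names matched to the RefSeq assembly ASM294v3 gave 2917 probe sets of 2899 S. pombe genes, and 1 probe set was kept per gene. The build behind the array design is unstated in these sources, so no coordinates or sequences are shown. Signals under the background of each array (95th percentile of 2593 S. cerevisiae probe sets) were set to that level, and a ratio was used where 1 of its arrays or both exceeded background. Log2 ratios were differences from WT. No test was possible with 1 array per genotype. Correlations were Pearson's r over 9 arrays. Depth of an array has no count, so precision is limited by the number of arrays.

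The 34 genes and the 10 gene lists were chosen with earlier results of these data known. Named with all signals were genes 2-fold from WT on any array and the 5 highest and 5 lowest means over the deletions. So were the 5 widest ranges, and the highest and lowest gene of each deletion. For mak1, among the 5 lowest means, only WT and the range were given. Further ribosome and polymerase genes were named at 2-fold or as extremes of a list, though not all extremes were. Of the stress, starvation and meiosis lists, most genes at 2-fold were not named. The signals of nuc1, utp15 and rrp12 were added after their values were seen. Roles were assigned from gene names, not from values. Alternatives were median scaling, quantile normalization, no floor, a floor at the 99th percentile, both arrays above background, a pseudocount of 50, the median of the other 7 deletions as reference, the ribosome synthesis genes alone, averaging a gene's probe sets, and thresholds of 1.5-fold and 3-fold. Leaving out arrays from the correlations was chosen after the data had been seen. The procedure was tested on simulated data. Python 3.11.15, numpy 2.4.6, pandas 2.3.3 and matplotlib 3.10.9 were used.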

Additional observations from a re-analysis of the deposited data

How the results depend on the processing

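All 8 medians of the 34 genes kept their sign under the 9 alternatives run on them, but several of these could not change it. No floor, the higher floor, both arrays above background and averaging probe sets left every median and 2-fold count as reported. They could not do otherwise, since all 34 genes lay far above background and each had 1 probe set. A pseudocount draws each ratio towards WT and cannot change its sign. The check of sign thus rests on the scalings, the other reference and the ribosome synthesis genes alone. The median in SPAC3F10.17Δ, 0.13 as reported, was 0.05 with median scaling and 0.06 with quantile normalization, where the medians of all genes were -0.0028 and 0.03. Over the 9 alternatives the median ranged from 0.51 to 0.55 in meu29Δ, 0.24 to 0.39 in sgf73Δ, -0.30 to -0.21 in SPAC27D7.08cΔ, -0.16 to -0.12 in SPBC2A9.02Δ, -0.09 to -0.06 in ash2Δ, -0.07 to -0.01 on the array labelled pab1Δ and -0.07 to -0.02 on that labelled sec65Δ. With the median of the other 7 deletions in place of WT, the medians were 0.54 in meu29Δ, 0.39 in sgf73Δ, 0.16 in SPAC3F10.17Δ, -0.21 in SPAC27D7.08cΔ and -0.12 in SPBC2A9.02Δ. Counts at 2-fold depended on the reference and the threshold. With that reference, 1 gene was 2-fold from it in meu29Δ and 0 in sgf73Δ, where the WT reference gave 2 and 1. At 3-fold the counts were 0 in meu29Δ and 0 in sgf73Δ, and at 1.5-fold, in either direction, they were 14 in meu29Δ, 8 in sgf73Δ and 3 in SPAC3F10.17Δ. Other counts did not move. The median correlation of gene pairs was 0.616 to 0.819 with 1 array left out, lowest without meu29Δ, and 0.782 without the arrays labelled pab1Δ and sec65Δ. No paired analysis was possible because each genotype had 1 array and the labels' replicate number is the same for all. With 1 array per genotype, leaving out a replicate gives no ratio, so no count or median of a deletion has a replicate check. All 34 genes lay at least 430.2 signal units high on each array, far from background, so that dim signal does not limit their values, while the number of arrays does.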
